A study of Rattus norvegicus with 18 samples.

Results

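The insulin-like growth factor system is described here by 10 genes: the ligands Igf1 and Igf2, the receptors Igf1r and Igf2r, and the binding proteins Igfbp1 to Igfbp6. Members were the probe sets annotated to these symbols on a rat array. A probe set is the group of oligonucleotides that measures 1 transcript. Of the 10 genes, 9 had at least 1 probe set, with 24 probe sets in all among the 8740 tested. No probe set was annotated to Igfbp4, and it was not analysed here. Where a gene had several probe sets, the one with the highest mean signal led, and the others are given beside it.

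Insulin-like growth factors are small secreted proteins that drive growth and differentiation of cartilage, bone and muscle. They act through the tyrosine kinase receptor encoded by Igf1r, while the receptor encoded by Igf2r, which also sorts lysosomal enzymes, takes up IGF-II for degradation. Most IGF outside cells is held by IGF binding proteins (IGFBPs), which lengthen its life, limit or aid its access to the receptor, and are cut by proteases. Bone matrix is a major store of both ligands.

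The study asked how gene activity in the healing femur differs with age. Female Sprague-Dawley rats were young (6 weeks old), adult (26 weeks) or older (52 weeks) when the femur was broken around an intramedullary rod. RNA was taken from the middle part of the femur at 0 time, without fracture, and 0.4 (3 days), 1, 2, 4 or 6 weeks after the break. Each of the 18 arrays measured RNA pooled from 2 rats, with 1 array for each age and time. The sample held callus, cortical bone and marrow together, so fewer cells of a type and less RNA per cell cannot be told apart. With the 3 ages taken as replicates of a time, the p-values for time measure the spread across ages and not across rats of 1 age. Signals are the authors' linear array intensities. Those under 20 were set to 20 before log2 was taken, and 10.6% to 18% of the probe sets of an array were under that floor. The arrays had median signals of 149 to 188 and correlated with each other at r = 0.82 to 0.98. The ratio of 3′ to 5′ signal of Gapdh, a measure of RNA integrity, was 3.48 in the young 4-week array and 6.57 in the young 6-week array. In the other arrays it was 1.15 to 1.83.

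Several members rose in the healing bone, and most of the rise was at 1 week. Igf1, Igf2, Igf2r, Igfbp3 and Igfbp5 were each higher at 1 week than at 0 time (limma, Benjamini-Hochberg adjusted over all probe sets). Thus 5 of 9 members were called higher and 0 of 9 lower. Of all probe sets, 14.6% were called higher and 20.4% lower at 1 week. At 0.4 week 1 member was higher, Igf2r, where 14.1% of all probe sets were higher and 17.1% lower. At 2 weeks 3 members were higher, Igf2r, Igfbp3 and Igfbp5, against 9.49% of all probe sets higher and 10.3% lower. At 4 weeks Igf2r alone among the members was higher, against 3.31% of all probe sets higher and 1.77% lower. At 6 weeks limma called 0 members, against 0.561% higher and 0.32% lower over all probe sets. At an unadjusted p under 0.05, 1 member, Igf2r, was higher, and 889 of the 8740 probe sets were higher and 903 lower. The median log2 change of the 9 members was 1.61 at 1 week and 1.17 at 2 weeks, beside medians of -0.13 over all probe sets at both times. With quantile normalization or scaling to the median, which brought the median over all probe sets at 1 week to -0.03 and -0.015, 5 members were called higher as well. Igf1, Igf2, Igf2r, Igfbp3 and Igfbp5 also passed the F test over the 5 later times, as did 26.4% of all probe sets.

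The calls were fewer over all probe sets with the adult or the older arrays left out, and so were those of the members. With the adult arrays left out, 0 of 9 members were called by limma at 1 week, where 1.78% of all probe sets were called higher and 2.72% lower in the same fit. With the older arrays left out 0 of 9 were called, against 1.32% higher and 1.48% lower. In each case 5 members were higher at an unadjusted p under 0.05. Shares over all probe sets at that unadjusted level are not given here for these fits. The 1-week log2 change of Igf1 was 2.47 without the adult and 2.45 without the older arrays, and that of Igf2r 3.23 and 2.74. For Igf2 it was 1.51 and 1.59, for Igfbp3 1.52 and 1.3, and for Igfbp5 2.16 and 1.81, so that the direction was kept in both cases. At 2 weeks each of these left 2 members higher at an unadjusted p under 0.05 and 0 called, and at 0.4 week each left 1 higher at that level and 0 called. Without the adult arrays 1.69% of all probe sets were called higher and 2.08% lower at 0.4 week, and 0% both ways at 2 weeks. Without the older arrays these were 3.01% and 2.93% at 0.4 week, and 0.0801% and 0.0458% at 2 weeks. At 4 weeks each left 0 members by either count. With the young arrays left out, 6 members were called at 1 week, 5 of them higher and Igf1r lower, and 2 at 0.4, 5 at 2, 2 at 4 and 2 at 6 weeks. In that fit 14.5% of all probe sets were called higher and 21.1% lower at 1 week. The shares were 14.7% and 19.3% at 0.4 week and 12% and 17.6% at 2 weeks. They were 8.3% and 5.14% at 4 weeks and 7.78% and 7.27% at 6 weeks.

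**Figure D1:**
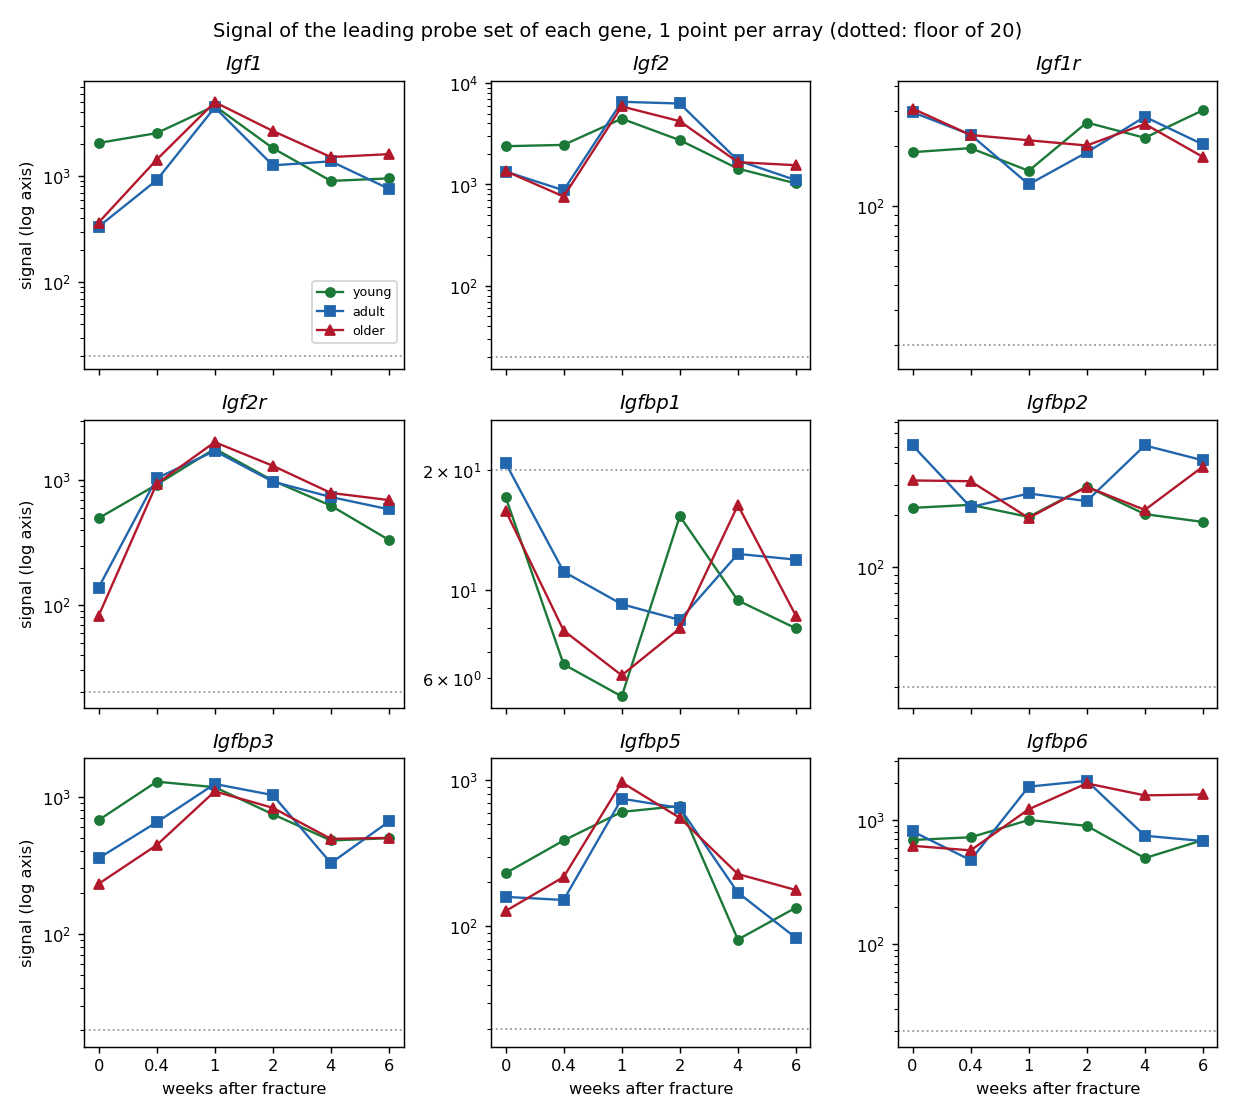
Signal (log axis, linear array intensity) of the leading probe set of each of the 9 measured genes against weeks after fracture, with 1 point for each array and a line for each age. Igf1, Igf2r, Igfbp3 and Igfbp5 of adult and older rats started below those of young rats and were within 1.59-fold of them at 1 week. Times are equally spaced, and Igfbp1 was under the floor of 20 on 17 of 18 arrays.

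To show the sequence from which these genes are read, the promoters of the 5 members that passed the F test are printed here. They come from RefSeq (build GRCr8) and run from 250 bases before to 50 bases after an annotated start, 5′ to 3′ on the strand of the gene. Capitals mark a GC box, GGGCGG on either strand, and no other motif searched was present in these 6 windows.
Igf1, chr7:24172282-24172581, + strand: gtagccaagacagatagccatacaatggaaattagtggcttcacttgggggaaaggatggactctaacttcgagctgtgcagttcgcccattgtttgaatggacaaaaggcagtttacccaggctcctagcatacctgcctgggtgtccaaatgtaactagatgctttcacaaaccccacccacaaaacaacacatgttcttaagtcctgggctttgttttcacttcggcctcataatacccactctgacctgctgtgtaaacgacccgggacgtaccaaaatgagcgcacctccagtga
Igf2 start 1, chr1:207253931-207254230, - strand: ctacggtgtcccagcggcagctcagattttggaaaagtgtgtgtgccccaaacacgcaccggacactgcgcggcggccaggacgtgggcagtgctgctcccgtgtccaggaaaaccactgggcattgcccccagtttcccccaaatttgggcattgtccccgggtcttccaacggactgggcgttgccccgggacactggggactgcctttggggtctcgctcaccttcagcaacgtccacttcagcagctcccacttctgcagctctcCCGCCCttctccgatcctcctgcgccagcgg
Igf2 start 2, chr1:207250426-207250725, - strand: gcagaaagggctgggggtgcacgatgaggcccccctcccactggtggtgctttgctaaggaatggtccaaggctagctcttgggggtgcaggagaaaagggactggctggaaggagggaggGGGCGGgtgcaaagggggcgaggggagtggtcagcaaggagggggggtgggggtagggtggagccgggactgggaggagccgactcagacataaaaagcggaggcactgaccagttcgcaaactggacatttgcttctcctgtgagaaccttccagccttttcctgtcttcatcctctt
Igf2r, chr1:50526628-50526927, + strand: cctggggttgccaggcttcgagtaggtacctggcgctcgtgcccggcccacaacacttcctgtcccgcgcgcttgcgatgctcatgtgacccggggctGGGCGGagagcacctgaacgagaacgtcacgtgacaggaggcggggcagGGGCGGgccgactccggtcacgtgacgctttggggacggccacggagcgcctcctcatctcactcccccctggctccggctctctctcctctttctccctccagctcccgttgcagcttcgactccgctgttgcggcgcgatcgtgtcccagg
Igfbp3, chr14:86277895-86278194, - strand: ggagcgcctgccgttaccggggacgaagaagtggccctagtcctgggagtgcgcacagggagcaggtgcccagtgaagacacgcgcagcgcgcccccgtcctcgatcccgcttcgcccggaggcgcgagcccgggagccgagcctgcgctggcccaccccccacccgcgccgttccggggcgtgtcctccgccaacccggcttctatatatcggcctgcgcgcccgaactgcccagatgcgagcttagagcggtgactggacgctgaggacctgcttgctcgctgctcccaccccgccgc
Igfbp5, chr9:81914138-81914437, - strand: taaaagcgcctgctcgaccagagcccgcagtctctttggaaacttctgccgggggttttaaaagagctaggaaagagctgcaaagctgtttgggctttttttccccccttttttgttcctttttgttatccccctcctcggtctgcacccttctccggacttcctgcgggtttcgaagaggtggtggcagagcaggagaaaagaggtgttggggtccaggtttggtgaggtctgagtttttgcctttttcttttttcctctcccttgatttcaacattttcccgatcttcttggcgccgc

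The motifs searched were the TATA box (TATAAA), the CCAAT box (CCAAT), the GC box (GGGCGG) and the AP-1 site (TGANTCA), each on both strands. Igf2r held GC boxes beginning 152 and 103 bases before its start. The Igf2 windows each held 1, beginning 129 bases before start 2 and 19 bases after start 1. None of the 4 motifs was in the windows of Igf1, Igfbp3 and Igfbp5, which says only that these letters are not there. GC content ranged from 48.3% for Igf1 and 50.7% for Igfbp5 to 68.0% for Igf2r and 71.7% for Igfbp3, beside a median of 51.7% over 33469 promoters. The windows of Igf2r and Igfbp3 held 30 and 36 CpG dinucleotides, beside a median of 7. Over all 10 genes with 11 starts, the GC box was in 5 windows, the CCAAT box in 1 (Igfbp1), the TATA box in 1 (Igfbp4) and the AP-1 site in 0. Of all promoters, 33.1% held the GC box, 37.5% the CCAAT box, 14.2% the TATA box and 7.33% the AP-1 site. Thus no motif searched was shared by all 5 members that passed the F test. In the annotation Igfbp3 lies next to Igfbp1 on chromosome 14 and Igfbp5 next to Igfbp2 on chromosome 9, with 0 genes between them in both cases. The leading probe sets of Igfbp3 and Igfbp5 were called higher at 1 week. All Igfbp1 signals at that time were under the floor, so it could not be called higher and cannot be compared with Igfbp3. The leading probe set of Igfbp2 was not called. A dimmer probe set of Igfbp2 was called lower at 1 week, by -2.80 on the log2 scale (adjusted p = 0.017, limma).

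With its leading probe set, Igf1 reached nearly 1 level at 1 week in rats of all ages. Igf1 is the main growth factor made in answer to growth hormone. At 0 time the Igf1 signal was 2061 in the young, 334 in the adult and 366 in the older rats. At 0.4 week it was 2553 in the young, 918 in the adult and 1435 in the older rats. At 1 week it was 4607, 4466 and 5009 in the same order. The 3 arrays of 1 week lay within 1.12-fold of each other and above all 3 controls, which spread over 6.17-fold. The log2 change at 1 week was 2.89 ± 0.56 (SE, adjusted p = 0.0042, limma), or 7.43-fold, higher at 3 of 3 ages. By age, the 1-week signal was 2.24-fold its own control in young, 13.4-fold in adult and 13.7-fold in older rats. At 2 weeks the Igf1 signal was 1840 in the young, 1267 in the adult and 2675 in the older rats, which overlapped the controls. At 4 weeks it was 903, 1383 and 1517, and at 6 weeks 954, 760 and 1617. Young rats at 4 and 6 weeks were thus under their own control, while adult and older rats were over theirs. The log2 change of Igf1 was 1.25 ± 0.56 at 0.4 week (adjusted p = 0.12) and 1.54 ± 0.56 at 2 weeks (adjusted p = 0.073), neither of which passed.

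Igf2, the growth factor best known from fetal growth, followed another course in the first days. At 0 time the Igf2 signal was 2387 in the young, 1344 in the adult and 1357 in the older rats. At 0.4 week it was 2459 in the young, 876 in the adult and 760 in the older rats, so that only the array of young rats was not below its control. At 1 week it was 4461, 6547 and 5891, above every control. The log2 change at 1 week was 1.77 ± 0.44 (SE, adjusted p = 0.012, limma), or 3.41-fold, higher at 3 of 3 ages. This call was lost with the mean of all 6 Igf2 probe sets, which gave 0.04 ± 0.22 (adjusted p = 0.94). At 2 weeks Igf2 was 2737 in the young, 6299 in the adult and 4213 in the older rats, again above every control, and its log2 change of 1.35 ± 0.44 did not pass (adjusted p = 0.053). At 4 weeks it was 1434, 1726 and 1660, and at 6 weeks 1025, 1103 and 1551, inside or below the range of the controls. Between 0.4 and 1 week Igf2 rose by 2.24 ± 0.44 on the log2 scale (adjusted p = 0.049), or 4.72-fold. It was the 1 member of 9 called between these times, where 0.503% of all probe sets were called higher and 0.343% lower.

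Igf2r, the receptor that clears IGF-II, had the largest change of the leading probe sets and the longest one. At 0 time the Igf2r signal was 496 in the young, 138 in the adult and 82.2 in the older rats. At 0.4 week it was 921, 1036 and 937, and at 1 week 1786, 1714 and 2016. The controls spread over 6.03-fold, and the 3 arrays of 0.4 week over 1.13-fold and those of 1 week over 1.18-fold. At 2 weeks Igf2r was 992 in the young, 974 in the adult and 1303 in the older rats. At 4 weeks it was 625, 733 and 791, still above every control, and at 6 weeks 332, 584 and 693. The array of young rats at 6 weeks was below that of young controls, and those of adult and older rats were above all controls. The log2 change was 2.44 ± 0.51 at 0.4 week (adjusted p = 0.0056, limma), 3.37 ± 0.51 at 1 week (adjusted p = 0.0015) and 2.60 ± 0.51 at 2 weeks (adjusted p = 0.010). It was 2.00 ± 0.51 at 4 weeks (adjusted p = 0.049) and 1.53 ± 0.51 at 6 weeks (adjusted p = 0.13). The 4-week call was lost without the young 4- and 6-week arrays, the pair with high Gapdh ratios, with a log2 change of 2.25 ± 0.55 (adjusted p = 0.059).

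Igf1r, the receptor through which both ligands signal, was not settled by its probe sets. The leading probe set at 0 time gave 186 in the young, 296 in the adult and 308 in the older rats, and at 1 week 150, 128 and 213. The arrays overlapped, and the log2 change of -0.68 ± 0.27 did not pass (adjusted p = 0.072). Its other probe set, nearly as bright with a mean signal of 215 beside 223, gave 262, 72.5 and 68.9 at 0 time and 362, 278 and 294 at 1 week. That probe set was above every control at 1 week and was called higher, by 1.50 ± 0.42 on the log2 scale (adjusted p = 0.020). The direction at 1 week therefore depended on the probe set, and the mean of both gave a log2 change of 0.41.

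By their leading probe sets, the binding proteins with a probe set fell into those that rose, those that did not pass and 1 near the floor. A dimmer probe set of Igfbp2 was called lower, as given below. Igfbp3, the main carrier of IGF in blood, had signals of 675 in the young, 356 in the adult and 232 in the older rats at 0 time. At 0.4 week it was 1288, 652 and 444, and at 1 week 1174, 1238 and 1094, above every control and within 1.13-fold of each other. Young rats were at their highest at 0.4 week, and adult and older rats at 1 week. At 2 weeks Igfbp3 was 745, 1028 and 830, again above every control, and at 4 weeks 480, 328 and 493. At 6 weeks it was 499, 660 and 501. The log2 change was 1.61 ± 0.36 at 1 week (adjusted p = 0.0073, limma) and 1.17 ± 0.36 at 2 weeks (adjusted p = 0.043).

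Igfbp5, the binding protein that also binds to bone matrix, peaked at 1 and 2 weeks with its leading probe set. Its signal was 231 in the young, 159 in the adult and 127 in the older rats at 0 time and 387, 152 and 218 at 0.4 week. At 1 week it was 607, 748 and 968, and at 2 weeks 667, 646 and 553. The 6 arrays of 1 and 2 weeks were above all 12 others for this probe set. At 4 weeks it was 81.3, 170 and 228, and at 6 weeks 134, 83.4 and 177. The log2 change was 2.18 ± 0.43 at 1 week (adjusted p = 0.0046) and 1.89 ± 0.43 at 2 weeks (adjusted p = 0.016). From 2 to 4 weeks the log2 difference was -2.08 ± 0.43, which did not pass (adjusted p = 0.055). In that step limma called 0 of 9 members, against 0.618% of all probe sets higher and 0.275% lower. At an unadjusted p under 0.05, 3 members were lower, and 677 of the 8740 probe sets were higher and 378 lower. From 1 to 2 weeks limma called 0 of 9, against 0.0458% higher and 0.0801% lower. At the unadjusted level 1 member was lower, and 510 of the probe sets were higher and 507 lower. From 4 to 6 weeks limma called 0 of 9 and 0% of all probe sets. At the unadjusted level there were 0 members, and 70 of the probe sets were higher and 142 lower.

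Igfbp6, which binds IGF-II in preference to IGF-I, stayed high for longest in older rats. Its signal was 692 in the young, 812 in the adult and 621 in the older rats at 0 time and 727, 477 and 571 at 0.4 week. At 1 week it was 1001, 1858 and 1222, and at 2 weeks 899, 2072 and 1974, above every control at both times. At 4 weeks it was 494, 748 and 1580, and at 6 weeks 691, 678 and 1608. Only the arrays of older rats were above the controls at 4 and 6 weeks. Over the 3 ages the log2 change was 0.90 ± 0.41 at 1 week (adjusted p = 0.11) and 1.13 ± 0.41 at 2 weeks (adjusted p = 0.072), neither of which passed.

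Igfbp2, a binding protein made by many tissues, was not called with its leading probe set, whose signals ran from 182 to 510 with the arrays of every later time overlapping the controls. A dimmer probe set of Igfbp2 gave 76.7 in the young, 230 in the adult and 486 in the older rats at 0 time. It gave 59.9, 20.3 and 54.8 at 0.4 week, 14.5, 64.0 and 14.3 at 1 week, and 30.5, 12.2 and 19.4 at 2 weeks. All 9 arrays of these times were below every control. At 6 weeks it gave 356, 373 and 214, back in the range of the controls. With values under 20 set to 20, its log2 change was -2.34 ± 0.76 at 0.4 week (adjusted p = 0.038), -2.80 ± 0.76 at 1 week (adjusted p = 0.017) and -3.15 ± 0.76 at 2 weeks (adjusted p = 0.020). Its dimmest probe set was under 20 on 14 of 18 arrays. Igfbp1, a binding protein made mainly by liver and lowered by insulin, was under 20 on 17 of 18 arrays and reached 20.8 at most, so no fold is given.

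**Figure D2:**
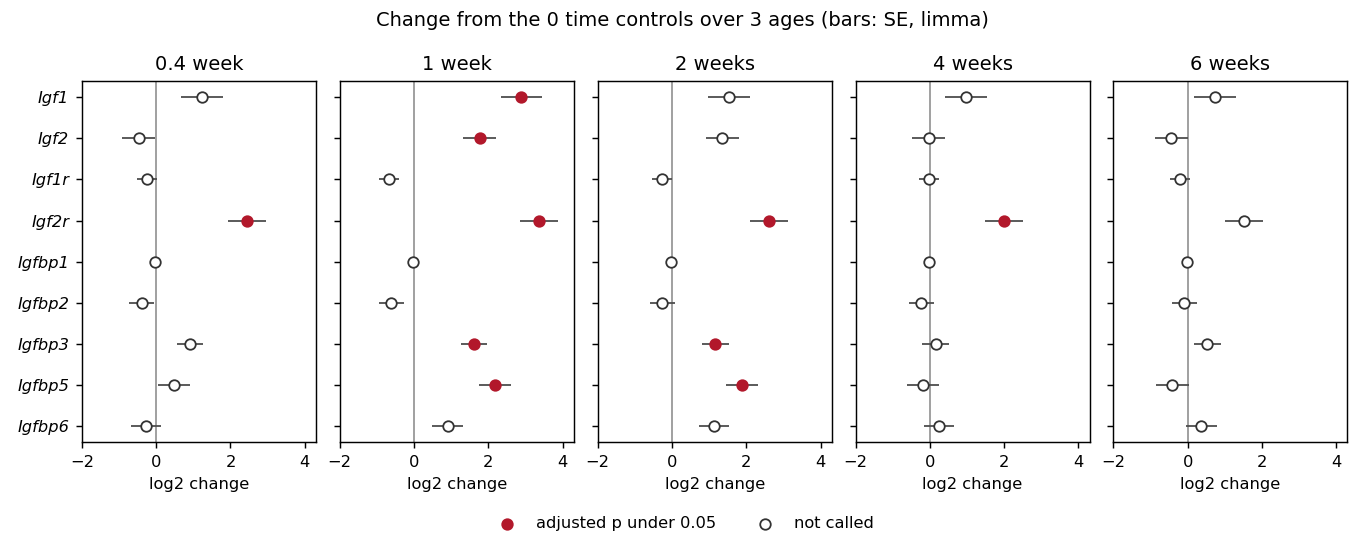
Log2 change from 0 time of the leading probe set of the 9 genes at each later time, over 3 ages, with SE as bars; filled points had a limma adjusted p under 0.05. At 1 week 5 of 9 were called higher, and Igf2r was called at 0.4, 1, 2 and 4 weeks.

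The probe sets of 1 gene did not always move together, which limits each statement above to the probe set named as leading. For Igf1, the leading probe set and 2 others were called higher at 1 week, by 2.38 ± 0.57 and 3.34 ± 0.49 on the log2 scale for the others (adjusted p = 0.010 and 0.0014). These 2 did not reach 1 level at 1 week as the leading one did. The first gave 492 in the young, 740 in the adult and 2000 in the older rats, and the second 456, 418 and 746. Another gave 2.11 ± 0.78 (adjusted p = 0.056). The last, with signals of 188 to 646, gave -0.50 ± 0.29 (adjusted p = 0.20). For Igf2, a second probe set was called higher at 1 week, by 2.73 ± 0.71 (adjusted p = 0.014). Its signals there were 123, 460 and 337 against 31.4 to 59.2 in the controls. Of the other probe sets of Igf2, 3 were called lower at 1 week, by -1.03 ± 0.32 (adjusted p = 0.028), -1.68 ± 0.49 (adjusted p = 0.023) and -0.98 ± 0.27 (adjusted p = 0.018). The last of these was under 20 on 16 of 18 arrays, and its call rested on the adult and older controls, at 52.8 and 58.0. The remaining one gave -0.56 ± 0.23 (adjusted p = 0.084). With the mean of all 6 probe sets Igf2 had a log2 change of 0.04 at 1 week and -0.14 at 2 weeks, against 1.77 and 1.35 with the leading one. Of the probe sets of Igfbp5, 2 were called higher at 1 week, and the other was under 20 on all 18 arrays. The second of those called gave 354, 164 and 413 in older rats at 1, 2 and 4 weeks, so that its highest signal in them was at 4 weeks. The second probe set of Igfbp3 gave 2.12 ± 0.90 (adjusted p = 0.087).

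**Figure D3:**
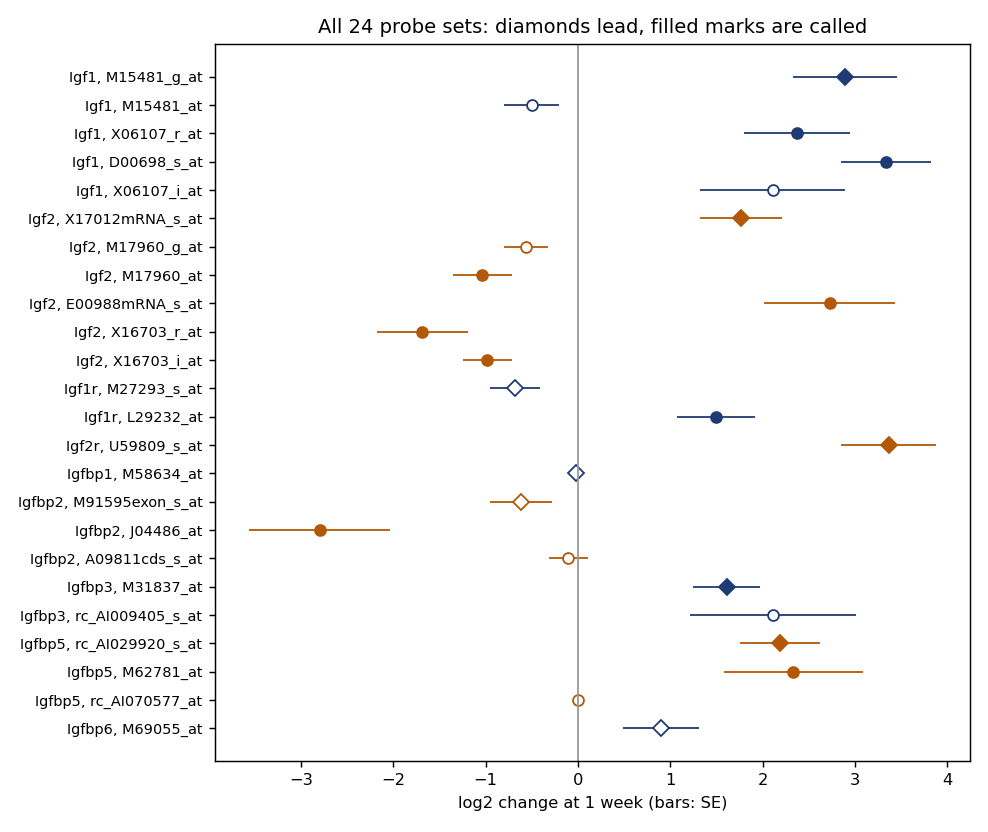
Log2 change from 0 time at 1 week for all 24 probe sets, with SE as bars; diamonds are the leading probe sets, filled marks had a limma adjusted p under 0.05, and colour alternates between genes. Probe sets of Igf1, Igf2 and Igf1r lie on both sides of 0.

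Older and young rats were compared after fracture, first at 1 and 2 weeks and then at 4 and 6 weeks. Here the weeks were taken as replicates of an age. The p-values and intervals thus measure the spread between weeks and not between rats of 1 age. At 1 and 2 weeks limma called 0 of 9 members, with 1 at an unadjusted p under 0.05, and 0% of all probe sets. That member was Igfbp6, with a log2 difference of 0.71 (95% interval 0.08 to 1.34, adjusted p = 0.80). At an unadjusted p under 0.05, 2.75% of all probe sets were higher and 2.99% lower. The log2 difference, older minus young, was 0.33 for Igf1 (95% interval -0.50 to 1.16), 0.51 for Igf2 (-0.01 to 1.03) and 0.28 for Igf2r (-0.20 to 0.76). At 4 and 6 weeks it called 0 of 9 members, with 2 at an unadjusted p under 0.05, and 0.149% of all probe sets. Those 2 were Igfbp6, at 1.45 ± 0.25 or 2.73-fold (adjusted p = 0.11), and Igf2r, at 0.70 ± 0.19 (adjusted p = 0.20). At the unadjusted level, 9% of all probe sets were higher and 5.59% lower. The change in the difference from 1 and 2 to 4 and 6 weeks was called for 0 of 9 members and for 0.0229% of all probe sets. At an unadjusted p under 0.05 there were 0 members, and 5.84% of all probe sets were higher and 2.32% lower. Over all 5 later times limma called 0 of 9, with 2 at an unadjusted p under 0.05 (Igf2r and Igfbp6), and 0% of all probe sets. At that unadjusted level, 5.9% of all probe sets were higher and 6.72% lower. Of the 9 members, 7 had a positive log2 difference at 4 and 6 weeks, and their median was 0.58 beside 0 over all probe sets. The young arrays of 4 and 6 weeks are the pair with high Gapdh ratios, and the part of RNA integrity in these differences was not tested.

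With the leading probe sets, older and young rats differed more at 0 time than at 1 week for several members. At 0 time the Igf1 signal of young rats was 5.64-fold that of older rats, that of Igf2r 6.03-fold, that of Igfbp3 2.91-fold, that of Igfbp5 1.81-fold and that of Igf2 1.76-fold. Igf1r and Igfbp2 were higher in older rats, by 1.66-fold and 1.45-fold. Other probe sets did not all go with these. The second of Igf1r gave 262 in young and 68.9 in older rats. Every other probe set of Igf2 was higher in older rats, at 789.6 against 387.6 for the brightest of them. Of the other Igf1 probe sets, those at 206.8 in older against 154.5 in young rats, and at 194.8 against 86.6, reversed the direction. Those at 554.8 against 622.6 and 23.7 against 115.1 kept it, as did the second probe sets of Igfbp2, Igfbp3 and Igfbp5. There was 1 control array for each age, so these levels have no test. Of the control arrays, the older one had 12.4% of probe sets under 20 and the young one 17.4%, and the part of this was not tested. At 1 week the signal of older rats was 1.09-fold that of young rats for Igf1 and 1.13-fold for Igf2r. It was 1.32-fold for Igf2, 0.93-fold for Igfbp3 and 1.59-fold for Igfbp5. At other times the gap was not always smaller than at 0 time. For Igf2 young rats had 3.23-fold the signal of older rats at 0.4 week, and for Igfbp3 2.90-fold. For Igfbp5 older rats had 2.81-fold the signal of young rats at 4 weeks.

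**Figure D4:**
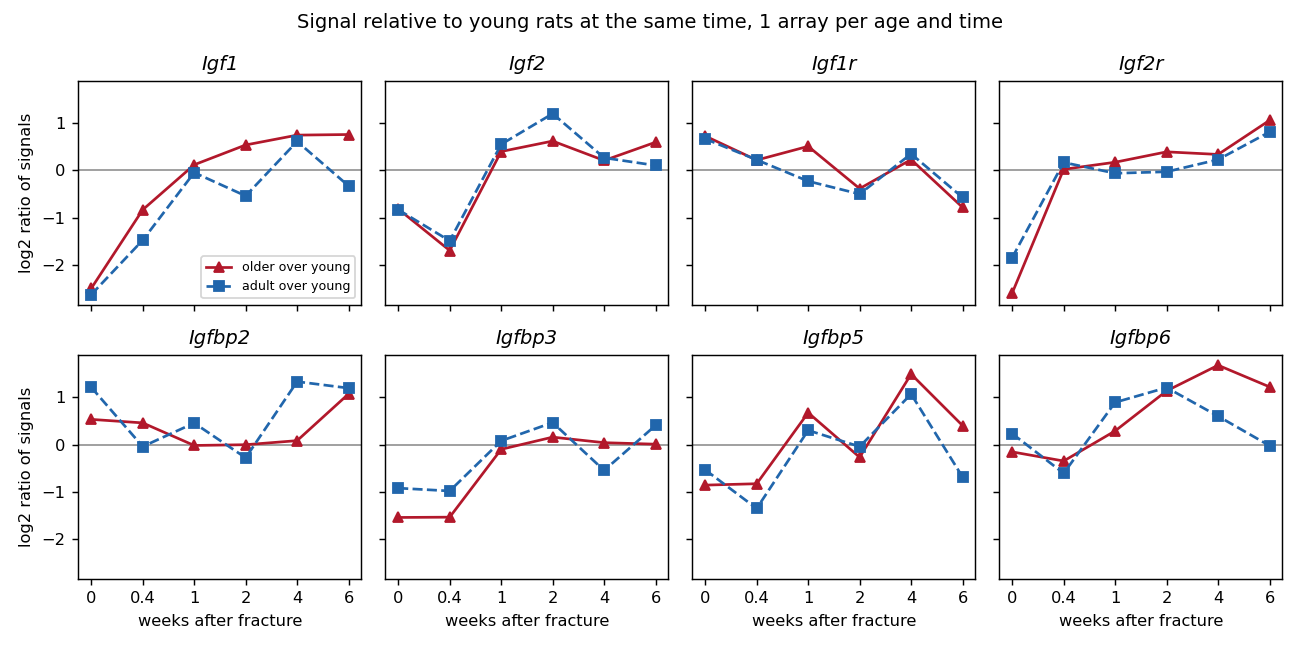
Log2 ratio of the signal of older rats (triangles) and adult rats (squares) to that of young rats at the same time. Shown are the leading probe sets of the 8 members measured above the floor, with 1 array for each age and time. Igf1 and Igf2r started well below 0 at 0 time and lay near 0 at 1 week.

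The change from the own control was then compared between older and young rats, a comparison chosen after the values were seen and resting on 1 control array for each age. For Igf2r the log2 difference, older minus young, was 2.88 ± 0.32 at 1 and 2 weeks (adjusted p = 0.020, limma) and 3.29 ± 0.32 at 4 and 6 weeks (adjusted p = 0.011). Of the 2.88, the gap between the 2 control arrays, -2.59 as older minus young, made up the greater part, and the signals after fracture gave 0.28. The spread in these tests came from the arrays after fracture with 4 residual degrees of freedom, so the p-values do not measure the spread between controls. Igf1 differed by 2.82 ± 0.56 at 1 and 2 weeks (adjusted p = 0.090) and by 3.25 ± 0.56 at 4 and 6 weeks (adjusted p = 0.047). The latter call was lost with the mean of its 5 probe sets, which gave 1.40 ± 0.42 (adjusted p = 0.17), and the 4 other probe sets ran from -0.07 to 2.40. Thus 1 of 9 members was called at 1 and 2 weeks, against 2.67% of all probe sets, and 2 of 9 at 4 and 6 weeks, against 4.74%. Of the other probe sets, 1 of Igf1r was called at 4 and 6 weeks, at 2.45 ± 0.41 (adjusted p = 0.044), while its leading one had a negative difference and was not called (adjusted p = 0.43). The probe set of Igf2 under 20 on 16 of 18 arrays was called lower at both, at -1.54, which rested on the older control of 58.0 against values set to 20. Each difference contains the gap between the ages at 0 time given above, and the signals after fracture did not pass a test between older and young rats.

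The members were set against all genes with 1 symbol and a mean signal of at least 200, by Pearson's r of log2 signals over the 18 arrays, which share ages and times. These are descriptions over 2583 genes. Igf2 was most like Myh3, the embryonic myosin heavy chain of muscle (r = 0.96), then Cdh22, a cadherin (r = 0.88), and Myl4, the embryonic and atrial myosin light chain (r = 0.87). Igfbp5 was also most like Myl4 (r = 0.89), followed by Ddah1 and Nr3c1, the glucocorticoid receptor (both r = 0.88). The signal of Myh3 was 7944 in the young, 4114 in the adult and 3956 in the older rats at 0 time, 5692, 1980 and 2656 at 0.4 week, and 9279, 15154 and 10557 at 1 week. Like the leading probe set of Igf2, Myh3 was lowest in adult and older rats at 0.4 week. Myl4 was 12.1, 91.3 and 22.9 at 0 time and 959, 1699 and 2469 at 1 week, above every control. Of 19 measured genes listed for skeletal muscle, 14 were called lower and 1 higher at 1 week, and 15 lower and 1 higher at 0.4 week. Of all probe sets, 20.4% were called lower and 14.6% higher at 1 week, and 17.1% and 14.1% at 0.4 week. The summed signal of the listed muscle genes was 178796 to 341657 at 0 time, 53581 to 58229 at 0.4 week and 79005 to 113410 at 1 week. The part of muscle in the signals of Igf2 and Igfbp5 was not tested.

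Igf1, Igf2r and Igfbp3 were most like genes of the connective tissue matrix and other genes. Igf1 was most like Aspn, which encodes the matrix protein asporin (r = 0.91), Mmp2, a matrix metalloproteinase (r = 0.90), and Igf2r (r = 0.87). Igf2r was most like Timp2, an inhibitor of metalloproteinases (r = 0.98), Btd, biotinidase (r = 0.96), and Col5a1, a fibrillar collagen (r = 0.96). Igfbp3 was most like Sgk1, a kinase induced by serum and glucocorticoid (r = 0.87), Col12a1 (r = 0.86) and Ralb (r = 0.85). The fibrous matrix markers, a list that includes Col5a1, had 10 of 10 measured called higher at 1 week and 9 at 0.4 week. Of all probe sets, 14.6% and 14.1% were called higher at these times. The summed signal of the fibrous matrix markers was 6995 to 58844 at 0 time and 88952 to 107192 at 1 week. Timp2 at 0 time was 3181 in the young, 1476 in the adult and 740 in the older rats, in the order of Igf2r, and at 1 week it was 8523, 9062 and 9010. Between members, r was 0.87 for Igf2 with Igfbp5 and for Igf1 with Igf2r, and -0.70 for Igf1 with the leading probe set of Igf1r.

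**Figure D5:**
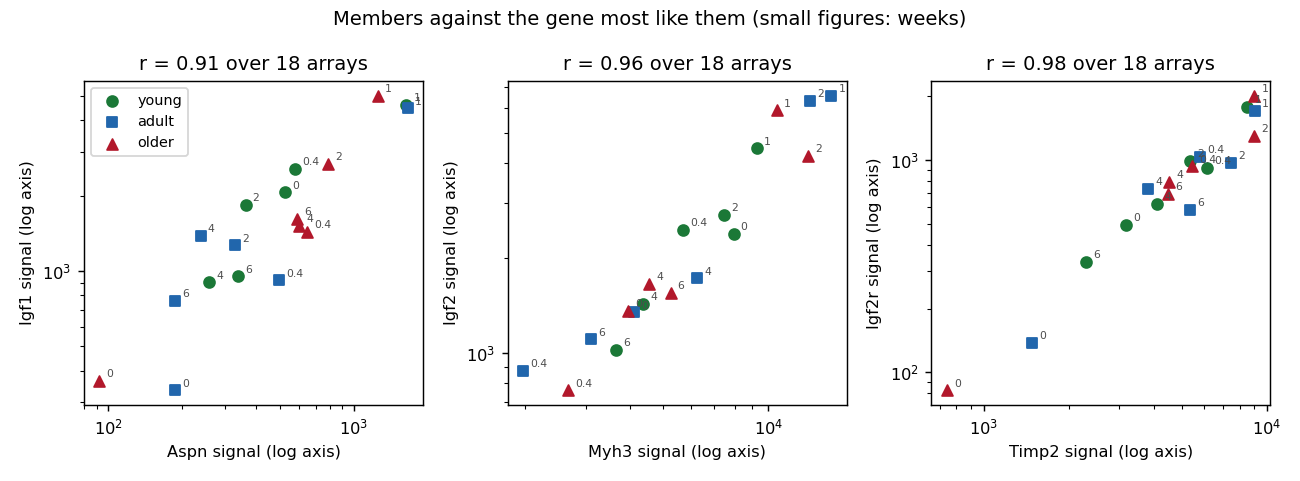
Signals of Igf1, Igf2 and Igf2r (vertical, log axis) against the gene whose pattern was most like each (horizontal, log axis), with 1 point for each of the 18 arrays, its week beside it and its age as colour and shape. The r values were 0.91, 0.96 and 0.98.

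Markers of other cell types moved at the same times as the members. Of all probe sets, 14.6% were called higher and 20.4% lower at 1 week. At 1 week 6 of 7 chondrocyte markers measured were called higher, and their summed signal went from between 396 and 2700 at 0 time to between 12520.3 and 20859. It was 24045 to 27892 at 2 weeks. Bone matrix markers had 4 of 9 higher and 1 lower at 1 week, with a summed signal of 30385 to 136594 at 0 time and 85760 to 98734 at 1 week. Erythroid markers had 7 of 7 lower at 1 week, from 72578 to 107047 down to between 3989 and 11047 in summed signal. Granulocyte markers had 6 of 7 lower, from between 15273 and 29903 to between 1938 and 2184. Of genes listed as hepatocyte markers, 7 of 12 were lower and 0 higher at 1 week. Their summed signal was 2537 to 3294 at 0 time and 1179.6 to 1306 at 1 week. Which cells gave the signals of these listed genes was not tested. The part of the other cell types in the members' changes was not tested.

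Genes around the IGF system were followed with a list of 94 genes, of which 64 were measured. At 1 week 18 of 64 were higher and 9 lower. Higher and lower calls numbered 14 and 8 at 0.4 week, then 10 and 3 at 2 weeks. Over all probe sets the shares were 14.1% and 17.1% at 0.4 week and 9.49% and 10.3% at 2 weeks. Few of the 64 were called later, with 2 and 1 at 4 weeks and 0 and 1 at 6 weeks. The shares over all probe sets were then 3.31% and 1.77%, and 0.561% and 0.32%. The median log2 change of the 64 at 1 week was 0.11, beside -0.13 over all probe sets. Of the 64, limma called 0 between older and young rats at 4 and 6 weeks or over all later times. At an unadjusted p under 0.05, 10 were higher and 7 lower in older rats at 4 and 6 weeks, and 7 and 5 over all later times. Over all probe sets, 9% were higher and 5.59% lower at that level at 4 and 6 weeks, and 5.9% and 6.72% over all later times. Calls ran both ways inside the list. The counts of its groups at 1 week stand beside the 14.6% higher and 20.4% lower of all probe sets, and with 1 to 20 genes in a group nothing particular to a group is read from them.

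Of the genes of growth hormone signalling, 2 of 9 measured were higher and 2 lower at 1 week. Socs3, a feedback inhibitor of cytokine receptors, was 48.4, 193 and 90.9 at 0 time and 425, 339 and 577 at 1 week, higher by 2.20 ± 0.53 on the log2 scale (adjusted p = 0.010). Ghrhr, the receptor for growth hormone releasing hormone, was lower by -1.58 ± 0.34 at 1 week (adjusted p = 0.0060). Sstr2, a receptor for somatostatin, stood at 192, 145 and 116 at 2 weeks and at 58.3 or less on the other 15 arrays. Its log2 change at 2 weeks was 2.76 ± 0.33 with the floor of 20 (adjusted p = 0.0027). Ghr, the growth hormone receptor, was not called at 1 week, at 1.11 ± 0.72 (adjusted p = 0.25).

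Partners and proteases of the binding proteins had 3 of 10 measured higher and 1 lower at 1 week. Plat, the tissue plasminogen activator, was 206, 147 and 65.1 at 0 time and 717, 644 and 955 at 1 week, higher by 2.60 ± 0.49 (adjusted p = 0.0038). Mmp9, a gelatinase of osteoclasts and neutrophils, was 1931, 430 and 1008 at 0 time and 9450, 11985 and 8330 at 2 weeks, higher by 3.38 ± 1.05 (adjusted p = 0.044). Klk1, a tissue kallikrein, was 14.9, 164 and 121 at 0 time and 1697, 5177 and 4364 at 1 week, higher by 5.52 ± 0.86 (adjusted p = 0.0017). Kallikrein genes of the rat are close copies of each other, so which of them this probe set measured is uncertain. Igfals, the partner of Igfbp3 in the complex that carries IGF in blood, was lower by -1.31 ± 0.29 at 1 week (adjusted p = 0.0074). Its signal was 335, 506 and 589 at 0 time and 185, 206 and 174 at 1 week, with all 3 below every control.

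Of 4 measured genes listed for insulin and its receptors, 1 was lower at 1 week, and 0 were higher. It was Ins1, which encodes the secreted hormone insulin (-0.97 ± 0.29, adjusted p = 0.025). Detection calls were not analysed here, so the presence of Ins1, Ghrhr and Igfals RNA in the sample is not settled. Inside the cell, of 12 measured substrates and adaptors, 2 were higher and 3 lower at 1 week. Irs2, a docking protein of the receptors, was lower at 0.4 week by -1.52 ± 0.40 (adjusted p = 0.016), and so was the phosphatase Ptpn11, by -1.40 ± 0.35 (adjusted p = 0.012). Ywhaz, a 14-3-3 adaptor, was higher at that time by 1.34 ± 0.31 (adjusted p = 0.0092). Of 20 measured genes of the PI3K, AKT and mTOR pathway, 7 were higher and 2 lower at 1 week. The regulatory subunits Pik3r2 and Pik3r3 were higher, by 2.13 ± 0.50 at 1 week (adjusted p = 0.0094) and 1.62 ± 0.44 at 0.4 week (adjusted p = 0.018). The leukocyte catalytic subunit Pik3cd was lower at 1 week, by -1.67 ± 0.34 (adjusted p = 0.0053). Of 8 measured genes of the RAS and MAP kinase pathway, 4 were higher and 0 lower at 1 week. Among these were the transcription factor Myc, by 1.02 ± 0.23 (adjusted p = 0.0074), and the phosphatase Dusp6, by 1.34 ± 0.34 (adjusted p = 0.013). The GTPase Nras was highest in change at 0.4 week, at 3.04 ± 0.49 (adjusted p = 0.0014).

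H19, the non-coding RNA next to Igf2 that is imprinted in the opposite sense, was the 1 measured gene of 5 listed for the Igf2 locus and Igf2 RNA binding. Its signal was 6797 in the young, 10899 in the adult and 16640 in the older rats at 0 time and 6042, 3992 and 5280 at 0.4 week, below every control. The log2 change at 0.4 week was -1.09 ± 0.32 (adjusted p = 0.024). At 1 week H19 was 9492, 12398 and 13561, and its log2 change of 0.12 ± 0.32 was not called (adjusted p = 0.82). H19 thus had its low point at 0.4 week in adult and older rats, as the leading probe set of Igf2 had. The H19 controls were higher in older than in young rats, and those of that Igf2 probe set lower. With every other Igf2 probe set the older control was above the young one, as with H19. The older control array also had a higher median signal than the young one, 178 against 160. It had fewer probe sets under 20, at 12.4% against 17.4%. The part of this in these levels was not tested.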

How the data were processed

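RNA of the middle part of the rat femur was measured on 18 Rat U34A arrays (the paper's series 3; series 1 and 2 were not analysed here). The deposited intensity values are linear signals, which the authors obtained with Microarray Suite 5.0 and scaled to a mean of 500 on each array. Of 8799 probe sets, 59 controls were left out. Of the 8740 tested, 7006 had 1 gene symbol, 308 several and 1426 none, and the current rat table (GRCr8) held 6985 of 7006 gene identifiers. Signals under 20 were raised to 20 before log2 was taken, and arrays were not normalized again. For time, limma 3.58.1 (R 4.3.3) was fitted to the 18 arrays with additive terms for week and age, an intensity trend and Benjamini-Hochberg adjustment over all 8740 probe sets at 0.05. Older and young rats were compared on the 12 arrays of 1 to 6 weeks with an age term for 1 and 2 weeks and another for 4 and 6 weeks, and on the 15 arrays after fracture. Residual degrees of freedom were 10, 4 and 8. The number of arrays, with no array repeated for an age and time, limits the precision. Detection calls were not analysed here.

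The members, gene lists and comparisons were chosen with earlier results of these data known. Named were all members with all probe sets, up to 3 called genes of each pathway group with the largest change at 0.4, 1 or 2 weeks, and the 3 genes most like each member that passed the F test. Ghr, Igfals, and values of Myh3, Myl4 and Timp2 were added after their values were seen. Alternatives tried were quantile and median scaling, a floor of 1, an offset of 50, a mean signal of at least 200, no trend, no age term, each age or week left out, the young 4- and 6-week arrays left out, the mean of all probe sets of a gene, and the methods' t-test. Scripts were tested on simulated data. Promoters are RefSeq windows. Plots were made with matplotlib 3.10.9 (Python 3.11.15).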

Additional observations from a re-analysis of the deposited data

Results flagged for a closer look

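The change from the own control differed between older and young rats for Igf2r and Igf1. For Igf2r the log2 difference, older minus young, was 2.88 at 1 and 2 weeks and 3.29 at 4 and 6 weeks, and for Igf1 it was 3.25 at 4 and 6 weeks (limma). With the mean of all probe sets the Igf1 call was lost, at 1.40 (adjusted p = 0.17). At 4 and 6 weeks the Igf1 signals of young rats were 903 and 954, below their control of 2061, while those of older rats were 1517 and 1617, above their control of 366. For Igf2r the young control was 496 and the older control 82.2. Each value rests on 1 control array for each age, and those of 4 and 6 weeks also on the young arrays with Gapdh 3′ to 5′ ratios of 3.48 and 6.57. The part of either in the differences was not tested.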

How the results depend on the processing

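Of 36 gene results, 16 were called. Under the alternatives these 16 gave 185 values, which all kept their direction, and 137 were called. Igf2 at 1 week fell from 1.77 to 0.04 with the mean of all probe sets, where 5 members were called, 4 higher and Igfbp2 lower. Apart from leaving out an age, 124 of 146 were called. For the counts of members that follow, shares over all probe sets under each setting are not given here. Nothing particular to the members is therefore read from those counts. Members called were 1 at 0.4 week and 2 with a floor of 1, an offset of 50, median scaling, a mean signal of at least 200 or the mean of all probe sets. At 2 weeks 3 were called, and 6 with a floor of 1, an offset of 50, median scaling or a mean signal of at least 200. At 4 weeks 1 was called, and 0 with no trend or without the young 4- and 6-week arrays. With the methods' t-test, run on the 3 arrays of a time against the 3 controls and Benjamini-Hochberg adjusted, 0 were called at 0.4, 1, 2 and 4 weeks, with 1, 6, 4 and 0 at an unadjusted p under 0.05. Leaving out each age in turn gave 0 to 2 at 0.4 week, 0 to 6 at 1 week, 0 to 5 at 2 weeks, 0 to 2 at 4 weeks, 0 to 2 at 6 weeks and 0 to 5 for the F test. Without the adult arrays the F test had 1 member, and without the older arrays 2 members, at an unadjusted p under 0.05. Between older and young rats at 4 and 6 weeks 0 were called, and 1 with a floor of 1, an offset of 50, median scaling or a mean signal of at least 200. For the change from the own control at 1 and 2 weeks 1 was called, and 2 with these same 4 settings. At 4 and 6 weeks 2 were called, and 1 with quantile normalization, no trend or the mean of all probe sets.

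With the mean of all probe sets, 4 values that were not called changed sign. They were Igf2 at 2 weeks (-0.14), Igf2 in the change from the own control at 1 and 2 weeks (-0.51) and at 4 and 6 weeks (-0.81), and Igf1r at 1 week (0.41). The cause was not tested. Age was a term of the time fit, and without it the members called went from 3 to 4 at 2 weeks and kept their number at the other 4 times. The ages stood in for replicates in the time fit, and the weeks in the comparisons of older and young rats. A difference between rats of 1 age therefore cannot be told apart from a difference between arrays. Signals near 20 have no order.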
